A study of Mus musculus with 4 samples.

Results

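The cells described here were retinal pigment epithelium (RPE) barcodes that held almost no Malat1 RNA, taken from mice at 2 months. A barcode stands for 1 droplet and was kept when it held at least 300 genes and at most 30% mitochondrial molecules, counted as unique molecular identifiers (UMIs). It was called RPE when at least 4 of 9 markers (Rpe65, Rlbp1, Ttr, Rgr, Lrat, Best1, Rdh5, Stra6 and Rrh) had a UMI, the 9 markers together made up at least 0.5% of its UMIs, and 4 hemoglobin genes (Hbb-bs, Hbb-bt, Hba-a1 and Hba-a2) made up under 5%. It was Malat1-poor when Malat1 was under 1000 counts per 1000000 of its UMIs (CPM). The rule found 1720 cells, 1287 of wild type and 433 of Vldlr-/- mice, among 2079 RPE barcodes at 2 months (1467 and 612), 3187 kept barcodes at that age and 6555 kept barcodes in the 4 libraries of the series. The cells were thus chosen by their measured levels of Malat1, of the 9 markers and of the hemoglobin genes, which are given as a description only.

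The study profiled single cells of mouse RPE and choroid by droplet sequencing in wild type and Vldlr-/- mice (a germline loss of the very low density lipoprotein receptor) at 1 and 2 months of age, with 1 library for each of the 4 groups. The neural retina was lifted away, and the remaining RPE and choroid were scraped off and digested with enzymes. Dead cells were then removed, and about 5000 cells were aimed at per library. Strain, sex, the number of animals behind a library and the deleted stretch of Vldlr are not given in the sources used here. With 1 library a group there is no replicate check: no difference between genotypes was tested, and every interval below is an exact 95% interval that covers counting error only.

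The RPE is the pigmented sheet behind the photoreceptors. It turns all-trans-retinol back into 11-cis-retinal (the visual cycle, through Lrat, Rpe65 and Rdh5, with Rlbp1 as the retinal carrier), takes up shed outer segments and digests them in lysosomes, and secretes transthyretin (Ttr). Mouse RPE cells often hold more than 1 nucleus. Malat1 is an abundant long noncoding RNA that stays in the nucleus, as do Neat1, Kcnq1ot1 and Xist, so its level in a droplet is often read beside other nuclear transcripts.

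The 2-month libraries held 23070271 UMIs in 2540 barcodes (wild type) and 16292472 UMIs in 1634 barcodes (Vldlr-/-), of which 2047 and 1140 barcodes were kept. They shared no barcode with each other, and the single barcode that the Vldlr-/- libraries of both ages shared was not a Malat1-poor cell. Vldlr itself, the targeted gene, was at 190 CPM of the summed UMIs of wild type Malat1-poor cells and at 16.2 CPM in Vldlr-/- ones, from 2369 and 70 UMIs. Outside the RPE barcodes it was at 49.4 and 44.2 CPM. The 2-month files were made with a later version of the counting software than the 1-month files, so age and software cannot be told apart.

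Malat1 split the RPE barcodes into a large low group and a small high one. Of the Malat1-poor cells, 710 of 1287 in wild type (55.2%, 52.4 to 57.9) and 197 of 433 in Vldlr-/- (45.5%, 40.7 to 50.3) had no Malat1 UMI at all. The barcodes thinned out around the limit: in wild type 67 lay between 500 and 1000 CPM, 27 between 1000 and 2000, and 15 between 2000 and 5000. In Vldlr-/- the same bands held 38, 27 and 25 barcodes. The highest Malat1-poor cell reached 969 CPM in the wild type library and 972 in Vldlr-/-, and the lowest barcodes beyond the limit at 1018 and 1010. The RPE barcodes above the limit, called Malat1-keeping here, numbered 180 and 179 and had median Malat1 levels of 18530 and 19456 CPM, close to the 16201 and 16937 CPM of kept barcodes outside the RPE rule.

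**Figure D1:**
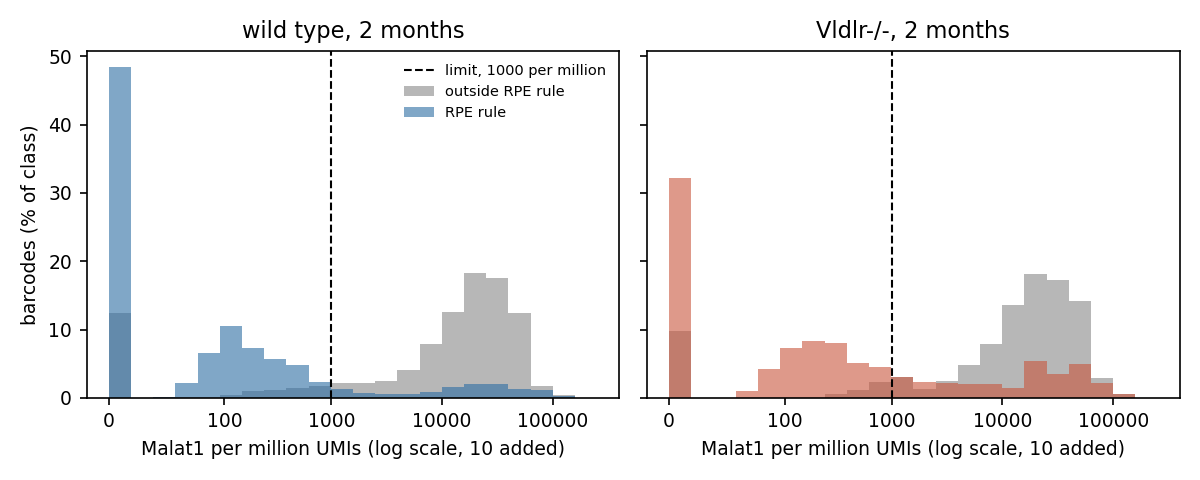
Distribution of Malat1 (CPM of a barcode's UMIs, log axis with 10 added) over kept barcodes of the 2-month libraries, as percent of RPE-rule barcodes (coloured) and of all other barcodes (grey); the dashed line is the limit of 1000 CPM. In both libraries most RPE barcodes lie left of the line, with 55.2% and 45.5% of the Malat1-poor cells at 0, while most other barcodes lie right of it.

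Malat1-poor cells made up 87.7% of RPE barcodes in the wild type library (85.9 to 89.4) and 70.8% in the Vldlr-/- library (67.0 to 74.3). The counting intervals of the 2-month libraries did not overlap, but they do not cover variation between mice. In the 1-month libraries the share was 78.8% (186 of 236 barcodes, 73.0 to 83.8) in wild type and 72.7% (125 of 172, 65.4 to 79.2) in Vldlr-/-, with overlapping intervals. Those Malat1-poor cells were shallow, with medians of 2197 and 2161 UMIs. The 1-month Malat1-keeping barcodes had medians of only 4 and 3 Malat1 UMIs, against 355 and 449 at 2 months. Malat1-poor cells at 1 month summed to 503308 and 304849 UMIs, so ratios given for that age rest on few counts. A Malat1 level under 1000 CPM was much less frequent outside the RPE rule, at 18.3% of 580 wild type and 13.8% of 528 Vldlr-/- barcodes.

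The label RPE was borne out by the markers that chose the cells, as it had to be. Ttr had a level of 40282 CPM in wild type cells and of 32919 CPM in Vldlr-/- cells, Rgr, an opsin of the RPE, at 11766 and 12054 CPM, Rpe65 at 5242 and 5084 CPM, and Rlbp1 at 3545 and 3099 CPM. The median cell held 8 of the 9 markers. Best1, which encodes the chloride channel bestrophin, was nearly absent, with 5 UMIs over all wild type and 2 over all Vldlr-/- cells. Markers of rods, fibroblasts and lymphocytes were low. The summed rod markers stood at 354 and 344 CPM against 9635 and 11802 CPM outside the RPE barcodes, and the summed fibroblast markers at 275 and 255 CPM against 2851 and 4471 CPM. The 11 T and natural killer cell markers summed to under 1 CPM, with 9 and 8 of them at 0. The Muller glia and melanocyte lists share genes with the RPE and were higher than outside: they summed to 19508 and 17725 CPM against 9335 and 8328 CPM, and to 2426 and 2341 CPM against 709 and 796 CPM. Apoe, Clu and Rlbp1 made up most of the first list, while Aqp4, a water channel that marks Muller glia, had 2 UMIs and 0. Dct, Tyrp1 and Pmel made up most of the second, while Mcam had 3 UMIs and 1, although Sox10 was at 63.1 and 84.9 CPM. The part of such cells in the results was not tested. Without pigment genes and others known from the RPE, 118 marker genes of other cell types gave a median of 0.127% and 0.114% of a cell's UMIs and passed 0.2% in 160 wild type and 49 Vldlr-/- cells.

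The Malat1-poor cells were shallower and held fewer genes than the Malat1-keeping RPE barcodes. Their median depth was 8090 UMIs in wild type and 9042 in Vldlr-/-, against 15418 and 16811 in Malat1-keeping barcodes. The median number of genes was 2246 and 2207 against 4174.5 and 4131. When every cell was thinned to 2000 UMIs, which left out 72 wild type and 49 Vldlr-/- Malat1-poor cells, the gap in genes narrowed to 858 and 815.5 against 984 and 981. The mitochondrial share was lower as well, at a median of 2.89% and 2.26% against 6.37% and 3.50%.

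The RNAs that were low beside Malat1 were, first, the other nuclear noncoding RNAs. Because Malat1 divided the classes, this contrast describes what the rule selected and supports nothing further. The Malat1-poor and Malat1-keeping cells come from the same libraries, and 10454 genes had at least 30 UMIs over both classes in each library. Of a list of 15 nuclear long noncoding RNAs, 9 were measured and 8 were at least 2-fold lower in Malat1-poor cells of both libraries, where the background over all genes was 17.8% (1866 genes) for lower and 0.21% (22 genes) for higher. The list's median log2 ratio was −4.77 in wild type and −2.93 in Vldlr-/-, against −0.27 and −0.37 over all genes.

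Neat1, the scaffold of paraspeckles, was at 7.31 and 10.9 CPM in Malat1-poor cells and at 201 and 171 CPM in Malat1-keeping ones. Xist, which coats the inactive X chromosome, was down to 5 and 8 UMIs, or 0.40 and 1.85 CPM, against 226 and 362 CPM. Kcnq1ot1, the antisense RNA of an imprinted cluster, had 17 and 2 UMIs against 484 and 438. Tug1 was the listed exception: it stood at 48.1 and 51.9 CPM in Malat1-poor cells and at 46.8 and 44.0 CPM in Malat1-keeping ones, and is known to occur in the cytoplasm as well as the nucleus. At an equal depth of 2000 UMIs, 1.23% and 2.08% of Malat1-poor cells had a Neat1 UMI against 27.8% and 27.97% of Malat1-keeping barcodes. Rpe65, a marker of the rule and so frequent by selection in both classes, had a UMI in 97.1% and 99.0% against 92.7% and 96.5%. Without thinning, 6.29% and 9.47% of Malat1-poor cells had a Neat1 UMI.

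Within the Malat1-poor cells these RNAs differed little by Malat1 level. Summed over the 14 listed nuclear RNAs other than Tug1, wild type cells with no Malat1 UMI were at 16.6 CPM (13.5 to 20.2), those above 0 and under 300 CPM at 15.5 CPM (12.3 to 19.2), and those from 300 to the limit at 21.3 CPM (13.8 to 31.4). The matching Vldlr-/- values were 19.9 CPM (13.5 to 28.3), 21.9 CPM (15.9 to 29.6) and 31.8 CPM (20.8 to 46.6), so the intervals overlapped in both libraries. Neat1 alone was highest nearest the limit, with 6.67, 7.002 and 11.9 CPM in wild type and 7.07, 12.2 and 14.7 CPM in Vldlr-/-. RPE barcodes just beyond the limit, from 1000 to 5000 CPM of Malat1, had 129.7 and 212 CPM of the 14 RNAs, and those above 5000 had 706 and 766 CPM. Those from 1000 to 5000 CPM were shallow, with medians of 2143 and 1784 UMIs.

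Beyond noncoding RNA, genes known for rapid induction and genes known for intron retention were low in the Malat1-poor cells. Of 17 measured immediate early genes, which cells transcribe within minutes of a stimulus, all were lower in both libraries, against 60.5% of all genes. At least 2-fold lower in both were 15, against 17.8% of all genes. The list's median log2 ratios were −3.49 and −3.02. It summed to 139 and 168 CPM, against 634 and 583 CPM in Malat1-keeping barcodes and 3646 and 3853 CPM outside the RPE rule. Fos stood at 0.88 and 1.15 CPM against 42.8 and 35.2 CPM, and Fosb had 1 and 0 UMIs against 69 and 49. Of 17 genes known to retain introns in the nucleus, 12 were at least 2-fold lower, with medians of −1.72 in both libraries. Son, a scaffold protein of nuclear speckles, differed by −1.50 and −1.56, while Ddx5, an RNA helicase, differed by −0.65 and −0.80. Markers of choroidal cells were also lower in Malat1-poor cells, with 9 of 9 endothelial and 7 of 8 fibroblast markers at least 2-fold lower. The 118 marker genes of other cell types passed 0.2% of UMIs in 22.8% and 20.1% of Malat1-keeping barcodes. In Malat1-poor cells they did so in 12.4% and 11.3%. The part of other cells' RNA in the contrast was not tested.

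With Malat1 and the other genes of the rule left aside, the 10 genes furthest below the Malat1-keeping level in both libraries were almost all noncoding or poorly characterised: Gm46218, Xist, A230057D06Rik, Gm45159, Gm4258, Fosb, Gm10280, A330023F24Rik, Kcnq1ot1 and A330076H08Rik. Gm46218 had no UMI in Malat1-poor cells of either library and 85 and 107 UMIs in Malat1-keeping barcodes, which makes it at least 100.02-fold lower in wild type and at least 36.9-fold lower in Vldlr-/- against a limit of 3 counts a library. Gm45159, also without a UMI, was at least 61.2-fold and 18.0-fold lower. By annotated type, 62 of 143 long intergenic noncoding RNAs and 47 of 143 antisense RNAs were at least 2-fold lower, against 1705 of 10036 protein-coding genes. The sources used here give no strand setting, so an antisense RNA cannot be told apart from its partner gene.

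The difference grew with the length of the gene on the chromosome. Over 10 equal groups of genes ordered by span, the share at least 2-fold lower in both libraries went from 5.74% in the shortest (median span 3022 bases) to 31.6% in the ninth group and 60.3% in the longest (median 220676 bases). The median log2 ratio went from 0.04 to −1.67 in wild type and from −0.25 to −1.42 in Vldlr-/-. Across 10453 genes, which share the same cells and are not independent replicates, the Spearman correlation between span and the log2 ratio was −0.45 in wild type and −0.33 in Vldlr-/-. For summed exon length it was −0.35 and −0.21. The sources used here do not say if intronic reads entered the counts.

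**Figure D2:**
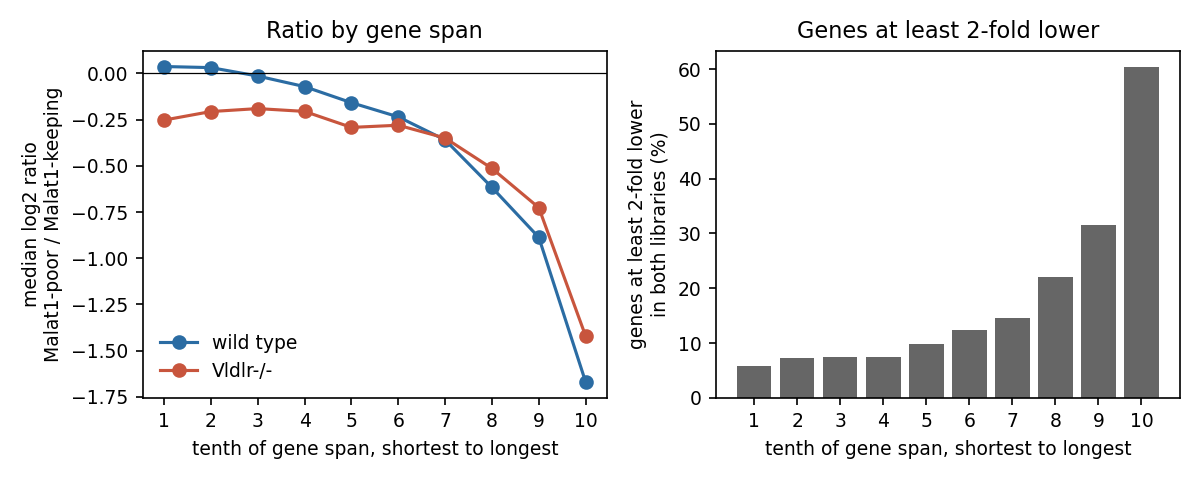
Malat1-poor against Malat1-keeping RPE cells over 10 groups of gene span (shortest to longest; 10453 genes with an annotated span): left, the median log2 ratio in each 2-month library (blue, wild type; red, Vldlr-/-), and right, the percent of genes at least 2-fold lower in both libraries. The median falls from 0.04 and −0.25 to −1.67 and −1.42, and the share of lower genes reaches 60.3% in the longest group.

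Messages for the work of the RPE lay on either side of their level in Malat1-keeping cells. In the lysosome list 20 of 30 genes were higher in Malat1-poor cells of both libraries (medians 0.41 and 0.10), against 17.9% of all genes. In the melanin and melanosome list 14 of 17 were lower in both (medians −0.39 and −0.33), against 60.5% of all genes. RPE transcription factors were at least 2-fold lower in 5 of 12, and outer segment phagocytosis genes were lower in 10 and higher in 7 of 20. Psap, the precursor of the saposins that activate lipid breakdown, differed by 0.90 and 0.80 on the log2 scale, and Ctsd, the protease cathepsin D, by 0.91 and 0.20. The nuclear-encoded respiratory complexes lay near 0, with medians of 0.22 and −0.09 for complex I and 0.17 and −0.15 for complex V. All 13 mitochondrially encoded messages were lower in both libraries, with medians of −1.52 and −0.87, and summed to 32336 and 30906 CPM against 89797 and 58104 CPM. The 8 genes around Gm42418 described below took 18.6% and 24.5% of summed UMIs in Malat1-poor cells, against 7.3% and 7.0% in Malat1-keeping ones. Without them in the totals, the median over all genes went from −0.27 and −0.37 to −0.09 and −0.07. The sign of a list near 0 in this contrast thus depends on the totals.

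The genes furthest above the Malat1-keeping level were Gm15564, AY036118, Gm19951, Cmss1, Gm42418, Camk1d, Cdk8, Gm48099, Cd44 and Gphn. Gm42418, an annotated RNA gene that overlaps ribosomal RNA sequence on chromosome 17 (39846958 to 39848788, plus strand, GRCm38), was the most abundant transcript. It made up 147022 CPM in wild type and 186412 CPM in Vldlr-/- Malat1-poor cells, against 57916 and 53711 CPM in Malat1-keeping barcodes and 69112 and 65874 CPM outside the RPE rule.

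Among themselves the Malat1-poor cells varied widely in the share of Gm42418. In both libraries 7 genes had a Spearman correlation with Gm42418 across cells of at least 0.6, among them Cmss1, Lars2, Gphn, Camk1d, Cdk8 and Gm15564, chosen after their values were seen, among 1094 other genes at 100 CPM or more. Cmss1, a ribosome biogenesis factor, had a correlation of 0.97 in wild type and 0.95 in Vldlr-/-, and Lars2, the mitochondrial leucyl-tRNA synthetase, 0.94 and 0.95. The next gene after the 7 was Actb at 0.53 and 0.52. These correlations run over 1287 and 433 cells of 1 library each, which share its chemistry and its depth range, and they are descriptions. The 8 genes with Gm42418 included took a median of 19.2% of a cell's UMIs in wild type (5th to 95th percentile 5.7 to 52.4) and 27.1% in Vldlr-/- (6.5 to 55.5). In Malat1-keeping barcodes the medians were 9.8% and 9.7%, outside the RPE rule 9.2% and 9.3%, and in Malat1-poor cells of the 1-month libraries 2.3% and 2.7%. Most of the genes were almost uncounted at 1 month: Cmss1 had 6 and 6 UMIs, Camk1d 0 and 1, Cdk8 3 and 3, and Gphn 8 and 2. Cmss1 was thus at 11.9 and 19.7 CPM at 1 month, against 17895 and 25227 CPM at 2 months. Whether the reads counted for these genes come from their messages is not known from these files.

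Ttr moved against this share. The Spearman correlation between the share of the 8 genes and the percent of UMIs from Ttr was −0.86 in wild type and −0.85 in Vldlr-/-, part of which follows from both being shares of 1 total. With the 8 genes taken out of the total it was −0.80 and −0.76. Small, abundant messages went the same way as Ttr: Ptgds, a prostaglandin D synthase, at −0.80 and −0.74, and Fth1, the ferritin heavy chain, at −0.72 and −0.67. Depth was lower where the share was higher (correlation with UMIs −0.49 and −0.30, with genes −0.56 and −0.37). For Malat1 the correlation was −0.09 and −0.13, but the rule held it under 1000 CPM and many cells had none, so its range was narrow. In wild type, 47.7% of cells with under 15% of UMIs from the 8 genes had no Malat1 UMI. Among cells with 30% or more it was 63.5%, and in Vldlr-/- the matching values were 36.7% and 51.5%. The part of depth in the pattern was not tested.

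By list, the ribosome and respiratory chain stood on the Ttr side. Of 79 cytosolic ribosomal protein genes, 78 had a negative correlation in both libraries (medians −0.43 and −0.33), as did 32 of 33 complex I, 7 of 7 complex III, 11 of 11 complex IV and 18 of 18 complex V genes. Over all 1094 genes the medians were −0.06 and −0.03, with 557 negative and 462 positive in both libraries. On the other side stood 7 of 9 genes of outer segment phagocytosis and 23 of 31 RPE channels, transporters and secreted factors. Named examples were Timp3, an inhibitor of matrix proteases that lies in Bruch's membrane (0.61 and 0.57), Psap (0.57 and 0.56) and Lrp1, a lipoprotein receptor (0.52 and 0.50). The side was related to the length of the message: in the quintile of genes with the shortest summed exons 192 of 219 were negative in both libraries, and in the quintile with the longest 174 of 219 were positive.

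**Figure D3:**
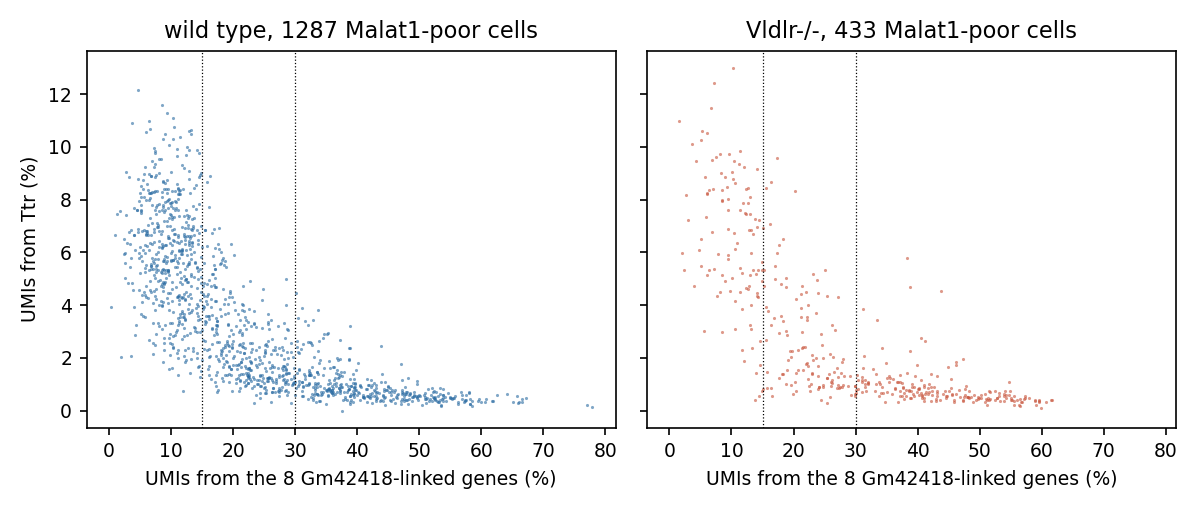
Each point is 1 Malat1-poor RPE cell of a 2-month library, with the percent of its UMIs from Gm42418 and the 7 genes that follow it on the horizontal axis and the percent from Ttr on the vertical axis; dotted lines mark 15% and 30%. In both libraries Ttr is high where the share is small and low where it is large, with a Spearman correlation of −0.86 in wild type and −0.85 in Vldlr-/-.

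The libraries held these cells in different proportions. Cells with under 15% of UMIs from the 8 genes were 518 of 1287 in wild type (40.2%, 37.6 to 42.99) and 109 of 433 in Vldlr-/- (25.2%, 21.2 to 29.5). Cells with 30% or more were 386 in wild type (29.99%, 27.5 to 32.6) and 200 in Vldlr-/- (46.2%, 41.4 to 51.0). The Vldlr-/- library was thus weighted toward the side where Ttr, ribosomal and respiratory chain messages were low. From the low through the middle to the high band, median depth was 12508, 7723 and 6134 UMIs in wild type and 13244, 9536 and 7736 in Vldlr-/-, and the median Ttr percent was 6.0, 2.1 and 0.7 in wild type and 6.7, 1.9 and 0.7 in Vldlr-/-. As CPM of the UMIs outside the 8 genes, complex IV genes summed to 11424, 6855 and 5316 in wild type and to 10540, 5766 and 4373 in Vldlr-/-. Lysosome genes ran the other way, with 15525, 19772 and 20049 in wild type and 14904, 19566 and 21662 in Vldlr-/-. Because of this imbalance, comparisons of genotype below are given over all Malat1-poor cells and, where it matters, within the bands.

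Of 395 genes ranked by their spread between cells at equal depth, the most uneven was Cox8b, a tissue isoform of a small cytochrome c oxidase subunit. In cells thinned to 2000 UMIs its variation beyond counting error (the coefficient of variation after Poisson variance is removed) was 176% in wild type and 302% in Vldlr-/-, against a median of 49.4% and 53.6% over the ranked genes. It had a UMI in 67.1% of wild type cells (863) and 40.0% of Vldlr-/- cells (173), and was at 44.7 and 13.97 CPM outside the RPE rule. The next were Fth1 (106% and 109%), A2m, a protease inhibitor (96.5% and 133%), Ndufa4, a cytochrome c oxidase-associated protein (89.9% and 110%), and Wfikkn2 (97.3% and 89.3%). Fth1 and Ndufa4 varied together across cells (Spearman correlation 0.63 and 0.61), whereas Cox8b had correlations of 0.01 to 0.29 with the other variable genes in wild type.

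Between genotypes, 10725 genes had at least 30 UMIs over the Malat1-poor cells of both libraries. Of these 155 were at least 2-fold higher in Vldlr-/- (1.45%) and 189 at least 2-fold lower (1.76%), with a median log2 ratio of −0.04. When the 8 genes were left out of each library's total every ratio rose by 0.11, the counts became 199 higher and 138 lower and the median 0.06, so a list with a median closer to 0 than that shift has no fixed direction. Of all 10725 genes 4726 lay above wild type and 5999 below. With totals without the 8 genes 6337 of 10717 lay above and 4380 below. Counts of genes above or below in the lists that follow stand beside these. Many of the called genes were rare: 107 of the higher and 126 of the lower had under 100 UMIs in all. The 24 genes described first, 12 in each direction, had at least 100 UMIs and, in the library where they were higher, at least 0.25 of the level outside the RPE barcodes, to limit the part of free RNA.

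Furthest above wild type was Trnp1, a nuclear protein known from cortical progenitors, with 39 UMIs (3.13 CPM) in wild type and 286 (66.0 CPM) in Vldlr-/-, a log2 ratio of 4.38 (3.91 to 4.92). Malat1-keeping barcodes gave 3.96 and Malat1-poor cells at 1 month 5.02. Cdhr1, Lrit1 and Rd3, also among the 12 higher genes, are known from photoreceptors. Pde6c, a cone marker, was among the 12 lower genes, and 2 of 2 measured cone markers were below wild type (median −2.21). Cdhr1, a cadherin known from the base of photoreceptor outer segments, rested on 1152 and 2108 UMIs, or 92.5 and 487 CPM, with a log2 ratio of 2.39 (2.29 to 2.499), and Lrit1, a transmembrane protein of photoreceptor synapses, on 41 and 220 UMIs with 3.93 (3.46 to 4.46). Rd3, an inhibitor of retinal guanylate cyclase, differed by 2.07. Of 10 measured rod markers 9 were above wild type as well, with a median of 0.50 and 1 gene 2-fold or more apart, although the list summed to 354 CPM in wild type and 344 CPM in Vldlr-/- cells. In the bands, with totals without the 8 genes, the rod median was −0.95 (0 of 6 above), 1.92 (6 of 7 above) and −0.48 (0 of 5 above). In Malat1-keeping barcodes all 12 measured rod markers were below wild type, and Cdhr1 differed by 3.34. Outside the RPE barcodes Cdhr1 was at 65.2 and 107 CPM. The part of photoreceptor RNA in these differences was not tested.

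Genes of lipid synthesis and the acute phase were also among the 12 higher genes. Scd1, the stearoyl-CoA desaturase, had 74 and 226 UMIs, or 5.94 and 52.2 CPM, with a log2 ratio of 3.13 (2.75 to 3.53), against 1.49 in Malat1-keeping barcodes. Thrsp, a regulator of lipogenesis, had 52 and 97 UMIs and a log2 ratio of 2.42. Serpina3n, an acute-phase protease inhibitor, had 84 and 274 UMIs and a ratio of 3.22, but 33 of the wild type UMIs lay in 1 cell, and it belongs to a family of near-identical genes whose counts are uncertain. C4b, a complement component with a near-identical neighbour, had 59 and 91 UMIs and a ratio of 2.14, with 26.4% of the Vldlr-/- UMIs in 1 cell. The other genes of the 12 were Erich5 (3.997), 2900052N01Rik (3.12), Hddc3 (2.20) and Klhdc8a (1.75).

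The most distant of the lower genes was Pttg1, which encodes securin, the inhibitor of sister chromatid separation. It had 1097 UMIs in wild type and 3 in Vldlr-/- Malat1-poor cells, or 88.1 and 0.69 CPM, a log2 ratio of −6.77 (−9.27 to −5.44). A Pttg1 UMI was found in 47.0% of wild type cells (605) and in 0.693% of Vldlr-/- cells (3). Malat1-keeping barcodes gave −5.60, and the barcodes outside the RPE rule stood at 67.2 and 5.43 CPM. Acadsb, a short branched-chain acyl-CoA dehydrogenase of the mitochondrion, had 728 and 7 UMIs with a ratio of −5.08 (Malat1-keeping −1.94). Arl6ip1, a shaping protein of the endoplasmic reticulum, carried the most molecules of these genes, 57958 and 5196 UMIs, with a log2 ratio of −1.96 and 4656 and 1199 CPM, against −1.89 in Malat1-keeping and −1.77 in 1-month Malat1-poor cells.

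Vldlr was among the 12, at a log2 ratio of −3.55 (−3.92 to −3.22), with a UMI in 68.5% of wild type (881) and 12.7% of Vldlr-/- (55) Malat1-poor cells. In Malat1-keeping barcodes the ratio was −1.74, from 436 and 154 UMIs, and outside the RPE rule −0.16. The gene spans chromosome 19 from 27216484 to 27254231 on the plus strand (GRCm38). Which of its exons the counted reads come from is not known from these files, so the remaining UMIs say nothing of the deleted stretch. The other lower genes were Dipk1c (190 and 11 UMIs), Ccnjl (206 and 12), Slc4a10 (107 and 9), Grik1 (406 and 37), Paqr7 (207 and 23), Pde6c (115 and 2), Kif5a (111 and 2) and Hist2h2aa1 (175 and 13), whose near-identical copies make its count uncertain. Of the Kif5a UMIs in wild type, 74 lay in 1 cell, and in Malat1-keeping barcodes its ratio was 1.34 on 4 and 13 UMIs.

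All 24 genes kept the sign of their ratio in each of the 3 bands of the 8-gene share, with totals taken without the 8 genes. The 24 were chosen by their ratios over these same cells, so the kept sign is a description and adds no support. Trnp1 gave 4.79, 4.32 and 3.95 from the low to the high band, and Vldlr −4.04, −3.70 and −3.19. Pttg1 had 702 and 2 UMIs, 235 and 1, and 160 and 0. Scd1 gave 2.59, 3.64 and 3.07. Paqr7 gave −3.86, −1.20 and −1.31, from 91 and 1, 70 and 11, and 46 and 11 UMIs. Kif5a rested on 5 and 0, 15 and 2, and 91 and 0 UMIs, and no size can be read where a library has 0.

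**Figure D4:**
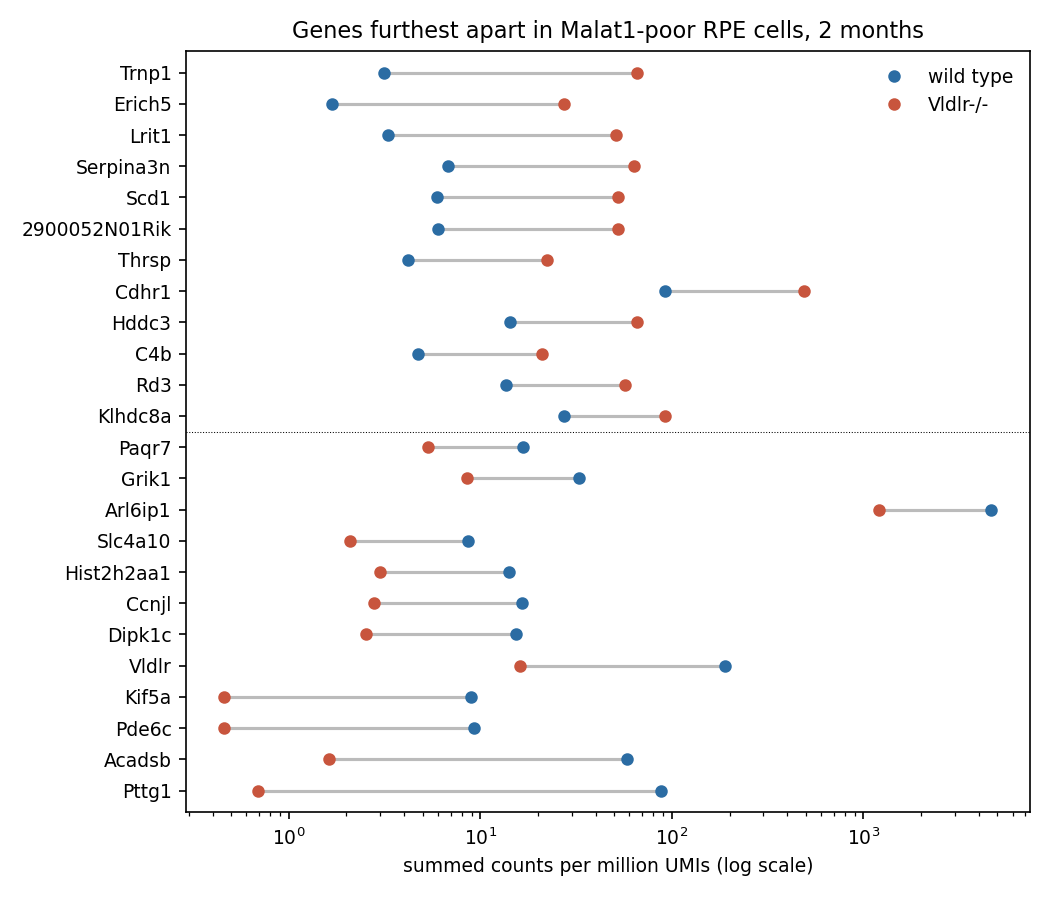
CPM of summed UMIs (log axis) of the 12 genes furthest above and the 12 furthest below wild type in Vldlr-/- Malat1-poor RPE cells at 2 months; each row joins the wild type library (blue) and the Vldlr-/- library (red), 1 library each. Pttg1 runs from 88.1 to 0.69 CPM, Vldlr from 190 to 16.2 CPM and Trnp1 from 3.13 to 66.0 CPM.

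Enzymes of cholesterol synthesis were mostly higher in Vldlr-/- Malat1-poor cells. Of 22 listed genes 17 were above wild type, with a median log2 ratio of 0.31 against −0.04 over all genes, and 1 was 2-fold or more apart. That gene was Sqle, squalene epoxidase, which went from 43.9 to 108 CPM (log2 1.30, 1.12 to 1.48). Insig1, the sterol-sensing retention factor of the pathway, went from 56.8 to 102 CPM (0.85, 0.67 to 1.02). Fdps, farnesyl diphosphate synthase, was at 40.9 and 66.7 CPM, and Msmo1, a sterol demethylase, at 86.0 and 119 CPM. Sc5d was lower, at 51.0 and 39.9 CPM (−0.35, −0.60 to −0.11). The list's median was 0.28, 0.50 and 0.42 in the 3 bands, with totals without the 8 genes, where the median of all genes was −0.08, 0.05 and 0.06. It was 0.53 in Malat1-keeping barcodes and 0.31 over 10 measured genes at 1 month.

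Genes of this pathway are known targets of the sterol-responsive factors SREBP, which bind a sterol regulatory element. The motif TCACNCCAC was searched on both strands in the 250 bases before the start of each gene (RefSeq, GRCm38.p6) and lies in 346 of 32851 windows (1.05%). Of the 22 listed genes 16 had a window and 1, Hmgcs1, held the motif, 137 bases before its start. The stretch is shown because it is the only listed promoter that matched, at chr13:119690188-119690247 on the plus strand, with the motif in capitals.
Hmgcs1: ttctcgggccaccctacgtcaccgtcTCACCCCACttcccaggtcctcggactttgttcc
A match describes these letters only. Hmgcs1, the cytosolic HMG-CoA synthase, went from 61.8 CPM in wild type to 71.6 CPM in Vldlr-/- Malat1-poor cells, a log2 ratio of 0.21 (0.02 to 0.40), so it was not among the listed genes furthest apart.

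Fatty acid desaturases were higher beside it. Of 16 genes of fatty acid synthesis 11 were above wild type, with a median of 0.21 that was −0.02 in cells with under 15% of UMIs from the 8 genes, 0.25 in the middle band and 0.37 in the high band. Scd2, the more abundant desaturase, went from 293 to 462 CPM (0.66, 0.58 to 0.74), Fads1 from 129 to 194 CPM (0.59, 0.46 to 0.71) and Fads2 from 211 to 262 CPM (0.31, 0.21 to 0.41). Fasn, the fatty acid synthase itself, was at 18.5 and 21.004 CPM, with an interval of −0.18 to 0.54. Elovl1, an elongase of very long chains, was lower, at 133 and 79.2 CPM (−0.74, −0.92 to −0.58).

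Nuclear genes of the respiratory chain were slightly lower in Vldlr-/- Malat1-poor cells over all cells, by an amount that differed between the bands. Below wild type were 35 of 37 complex I genes (median −0.19), 10 of 10 complex III genes (−0.35), 12 of 13 measured complex IV genes (−0.32) and 18 of 18 complex V genes (−0.31). With totals without the 8 genes the medians were −0.09, −0.24, −0.21 and −0.20. In cells with under 15% of UMIs from the 8 genes they were 0.02, −0.07, −0.05 and −0.04, in the middle band −0.04, −0.12, −0.15 and −0.12, and in those with 30% or more they were 0.00, −0.28, −0.22 and −0.20. Malat1-keeping barcodes, where the share of the 8 genes was alike in both libraries, gave 0.06, −0.05, −0.03 and 0.03. The Malat1-poor cells at 1 month gave −0.15, −0.33, −0.35 and −0.29.

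Most single genes of the chain differed by little. Uqcr11 of complex III was at 790 and 640 CPM (−0.30, −0.37 to −0.24), Ndufa13 of complex I at 852 and 754 CPM (−0.18), and Atp5k of complex V at 1017 and 929 CPM (−0.13). Cox8b of complex IV differed more than any other, from 985 to 354 CPM (log2 −1.48, −1.55 to −1.40), with −0.94 in Malat1-keeping barcodes and −1.22 in Malat1-poor cells at 1 month. Cox8a, its isoform present in most tissues, was at 2038 and 1641 CPM (−0.31, −0.35 to −0.27). Cox7a1, another tissue isoform, was the complex IV gene above wild type, at 12.7 and 18.2 CPM (0.53, 0.11 to 0.92). In the tricarboxylic acid cycle 20 of 22 genes were below wild type (median −0.21, and −0.17, −0.08 and −0.14 in the bands without the 8 genes in the totals).

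The 13 mitochondrially encoded messages gave opposite pictures in different cells. Over all Malat1-poor cells 8 were below wild type, with a median of −0.09, which became 0.02 with 3 below when the 8 genes were left out of the totals. In cells with under 15% of UMIs from the 8 genes 12 were above wild type (median 0.34), in the middle band the median was −0.14, and in cells with 30% or more all 13 were below (median −0.70), with totals without the 8 genes. In Malat1-keeping barcodes all 13 were below, with a median of −0.64, and in Malat1-poor cells at 1 month 12 were below, with a median of −0.23. The difference between the bands was not tested. mt-Co1, a core subunit of complex IV, was at 4161 and 4312 CPM and mt-Atp6 of complex V at 5998 and 5634 CPM over all Malat1-poor cells.

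**Figure D5:**
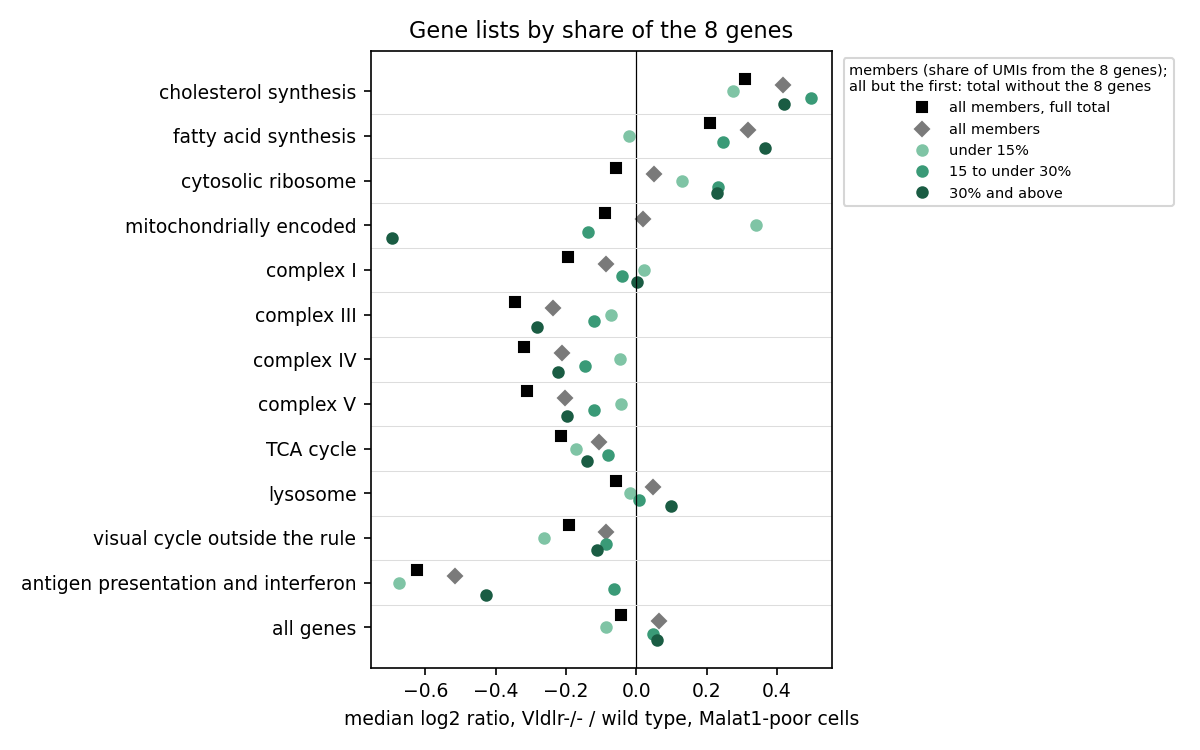
Median log2 ratio of Vldlr-/- over wild type for 12 gene lists and all genes in Malat1-poor RPE cells: black squares, all cells with the full total; grey diamonds, all cells with totals without the 8 genes; green circles, the 3 bands of the share of those genes, light to dark from under 15% to 30% and above. The cholesterol list lies to the right of 0 at every setting drawn, while the mitochondrially encoded list runs from 0.34 in the low band to −0.70 in the high band.

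Antigen presentation and interferon genes were mostly lower in Vldlr-/- Malat1-poor cells. Of 20 measured genes 17 were below wild type, 5 of them at least 2-fold, with a median of −0.62, which was −0.67, −0.06 and −0.43 in the bands and −0.09 in Malat1-keeping barcodes. Ifi27, an interferon-induced mitochondrial protein, went from 190 to 79.6 CPM (−1.25, −1.42 to −1.09), Ifitm3, a restriction factor, from 20.2 to 5.31 CPM (−1.90, −2.62 to −1.31) and Bst2, tetherin, from 145 to 88.9 CPM (−0.70, −0.86 to −0.54). The class I chain B2m, at 282 and 294 CPM, and H2-K1, at 40.6 and 43.2 CPM, had intervals that include 0. Ifitm3 differed by 0.59 in the other direction in Malat1-keeping barcodes. Macrophage markers, whose cells carry many of these genes, summed to 170 CPM in wild type and 175 CPM in Vldlr-/- Malat1-poor cells. Of 7 measured, 5 were above wild type and 2 below (median 0.44, from −1.94 to 2.02). The part of macrophage RNA in these differences was not tested.

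Genes that carry out the work of the RPE were close between genotypes. The 8 measured markers of the rule differed by −0.39 to 0.03 on the log2 scale, but they chose the cells in both libraries, so this is a description only. Outside the rule, 10 of 11 further visual cycle genes were slightly below wild type (median −0.19, or −0.09 with 7 below when the 8 genes left the totals). Apoe, the lipoprotein component the RPE secretes, was at 9890 and 8441 CPM (−0.23, −0.25 to −0.21), Lrp1 at 736 and 699 CPM (−0.08), and Ctsd at 2296 and 2414 CPM (0.07, 0.04 to 0.10). Lysosome genes had a median of −0.06 and ribosomal protein genes also −0.06, and both became 0.05 with totals without the 8 genes. The ribosomal median was 0.13, 0.23 and 0.23 in the bands. Vim, the intermediate filament vimentin, was higher at 82.5 and 175 CPM (1.09), against 104 and 298 CPM in Malat1-keeping barcodes.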

How the data were processed

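Single-cell 3′ libraries of mouse RPE and choroid were analysed from the deposited matrices, which hold raw UMI counts per gene and barcode as Cell Ranger 7.0.1 (2 months) and 6.0.2 (1 month) wrote them, per the file headers. Per the submitters' processing notes, Cell Ranger 3.0, Seurat 4.0 and the genome build mm9 also belong to the processing, with no role stated. The RPE rule was applied to each barcode, UMIs were summed over cells per library and scaled to CPM, and log2 ratios were taken with 0.5 counts added, for genes with at least 30 UMIs (Python 3.11.15, numpy 2.4.6, scipy 1.17.1). Intervals are exact Poisson-based or Clopper-Pearson 95% intervals and cover counting error only. With 1 library per group no test was run. Called means at least 2-fold apart. Malat1-poor cells summed to 12448028 UMIs in wild type and 4332567 in Vldlr-/-, so that a count of 0 allows up to 0.241 and 0.692 CPM (3 counts).

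The cells, the gene lists and the genes to name were chosen with earlier results of these data known, and the 8 genes around Gm42418 after their values were seen. Named were the 12 genes per direction furthest apart between genotypes (at least 100 UMIs), the 10 per direction between Malat1 classes, the most variable genes, and of each list the 2 most abundant genes and the 2 furthest apart. Other listed genes were named for their known role after their values were seen, as were further genes correlated with the 8-gene share. Doublets were not removed. Scrublet in scanpy 1.11.5 marked 0 of 2047 and 5 of 1140 kept barcodes. How well it worked here was not tested, and the top 5% of its scores were left out as an alternative. Gene spans come from a GRCm38 annotation that matched 32235 of 32285 gene IDs. The ratio code was tested on simulated counts. Some listed genes are not reported here.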

Additional observations from a re-analysis of the deposited data

How the results depend on the processing

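No paired analysis was possible because each group is 1 library. Of 74 counts and shares recomputed under alternatives chosen beforehand, 54 stayed within their spread or within 1.5 times. The Malat1-poor share of RPE barcodes was 77.8% in wild type and 57.2% in Vldlr-/- at a Malat1 limit of 300 CPM and 90.05% and 77.1% at 3000 CPM, and in wild type 90.5% at a mitochondrial limit of 15% and 89.95% with at least 6 markers and 2% of UMIs. Genes at least 2-fold higher and lower in Vldlr-/- (155 and 189) numbered 253 and 322 as a mean of per-cell shares, 48 and 63 with at least 100 UMIs, 1768 and 1026 with 1 UMI, and the lower ones 64 with 5 counts added. Genes lower in Malat1-poor cells (1866) numbered 367 of 4050 measured in cells thinned to 2000 UMIs, 982 with at least 100 UMIs and 5105 with 1 UMI. Those higher (22) numbered 4 at the 300 CPM limit, 46 as a mean of per-cell shares, 87 when centred on the median gene and 54 with 1 UMI. After the data were seen, the bands of the 8-gene share were added: 305 genes were lower in Vldlr-/- under 15%, and 103 higher and 107 lower from 30%. Of 463 list medians under those alternatives, 1 that lay 0.2 or more from 0 changed sign, p53 and cell death (−0.31), to 0.034 at 3000 CPM. In the bands that list gave 0.10 and heat shock 0.015 (from 15 to under 30%), and fatty acid synthesis −0.014 (under 15%, full totals). The causes were not tested, beyond the fewer genes measured in thinned cells or with 100 UMIs. Of 356 ratios of genes named between genotypes, recomputed under the alternatives chosen beforehand, 340 stayed alike, 16 moved and none changed sign. Under the settings added after the data were seen, 74 of 89 stayed alike and 15 moved. Of 283 recomputed ratios of genes named between Malat1 classes, 246 stayed alike and 37 moved. Depth limits the rare genes most: 107 of the 155 higher and 126 of the 189 lower genes had under 100 UMIs, and 10 of the lower had none in Vldlr-/- cells.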

Other observations

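Pigment genes of the Malat1-poor cells were mostly close between genotypes, apart from a few. Of 17 measured genes of melanin and the melanosome 11 were below wild type and 1 was called. Over all genes 5999 of 10725 were below. The list's median log2 ratio was −0.11, at the size of the 0.11 that leaving the 8 genes out of the totals adds. Dct, dopachrome tautomerase, had 1677 CPM in wild type and 1743 CPM in Vldlr-/- (0.06, 0.02 to 0.09), and Tyr, tyrosinase, at 290 and 269 CPM (−0.11). Pmel, which forms the fibrils on which melanin is laid down, was at 269 and 139 CPM (−0.95, −1.08 to −0.83), with −1.28 in Malat1-keeping barcodes but 0.91 in Malat1-poor cells at 1 month. Slc45a2, a melanosomal transporter, was at 20.2 and 34.6 CPM (0.78, 0.48 to 1.08). Among transcription factors of the RPE, Otx2 was at 680 and 662 CPM and Mitf at 68.4 and 69.7 CPM, with intervals that include 0. Sox9 was at 151 and 233 CPM (0.63, 0.51 to 0.74), with 0.66 in Malat1-keeping barcodes and 0.54 at 1 month. Pax6 was at 7.47 and 3.46 CPM (−1.07, −2.004 to −0.31), far under its 93.2 and 37.1 CPM outside the RPE barcodes.

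Sfrp5, a secreted Wnt antagonist, was at 94.6 and 192 CPM (1.02, 0.89 to 1.15), with 1.64 in Malat1-keeping barcodes, 0.90 in Malat1-poor cells at 1 month, and under 2 CPM outside the RPE barcodes. Gsr, glutathione reductase, was at 44.4 and 83.6 CPM (0.91, 0.72 to 1.11), with −0.08 at 1 month, while the 27 antioxidant genes had a median of −0.08, or 0.03 with totals without the 8 genes. Gpx4, the lipid peroxide reductase, was at 4163 and 4378 CPM (0.07, 0.05 to 0.10). Slc16a8, the basal lactate transporter of the RPE, was at 2458 and 2461 CPM, an interval of −0.03 to 0.03. Cryab, a small heat shock protein, was at 676 and 464 CPM (−0.54, −0.61 to −0.47), and 11 of 13 heat shock genes were below wild type, or 8 with totals without the 8 genes. Mt1, a metallothionein, was at 12598 and 11124 CPM (−0.18), and Mt2 at 2306 and 2363 CPM (0.04).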
